A study of Homo sapiens with 12 samples.

Results

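Transcripts of 10 genes of insulin and insulin-like growth factor (IGF) signaling were followed in C4.2B cells under inhibition of PI3K, of EZH2 and of both. The genes were given as a list by name: the ligand IGF1, the receptors IGF1R, INSR and IGF2R, the adaptors IRS1, IRS2 and GRB10, and the binding proteins IGFBP2, IGFBP3 and IGFBP5. All 10 were among the 23228 genes in the count files, and all 10 passed the filter on low counts that left 14189 genes for testing. C4.2B is an established human prostate cancer line of the castration-resistant type. It is the only line in these data.

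Insulin and IGFs bind receptor tyrosine kinases at the cell surface, which phosphorylate the IRS adaptors, and these recruit PI3K and turn on AKT. The pathway is held in check by feedback: when AKT is inactive, FOXO transcription factors enter the nucleus, and receptor and adaptor genes such as INSR and IRS2 are textbook FOXO targets. Outside the cell, IGF-binding proteins carry IGFs and control how much ligand reaches the receptor. EZH2 is the catalytic subunit of the Polycomb complex that trimethylates histone H3 at lysine 27, a mark of silenced genes.

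PolyA RNA of 12 libraries was sequenced, 3 (A, B and C) in each of 4 arms. DMSO received vehicle, GDC received 0.5 µM GDC-0941, an inhibitor of all class I PI3K isoforms, GSK received 5 µM GSK126, an EZH2 inhibitor, and COMBO received both agents at those doses. At dosing, all cells were switched from full serum to medium with 10% charcoal-stripped serum, which is depleted of steroids and other small molecules. RNA was taken 24 h after dosing, so every arm also shares this change of serum. GSK and COMBO cells had been kept in GSK126 for 6 days beforehand, so GSK126 and the pretreatment cannot be told apart.

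Between 8785218 and 44437751 reads per library fell in genes. Levels are given as CPM, read counts relative to the TMM-scaled library size. A gene with a count of 0 could have had up to 3 reads, or 0.0675 to 0.341 CPM by library when divided by the unscaled library total. Reads in genes made up 66.3% to 76.3% of all reads, lowest in COMBO. All 10 luminal prostate markers were detected in every arm, with summed levels of 4029 to 4198 CPM (DMSO), 5861 to 6061 (GDC), 5058 to 5493 (GSK) and 6464 to 6950 (COMBO), whereas the summed level of 4 basal markers was at most 0.932 CPM. The luminal markers did not all move together. KLK3 averaged 597 CPM in DMSO and 1843 in COMBO, whereas HOXB13 averaged 484 and 304. The transcript of EZH2 itself, which does not measure inhibition of the enzyme, averaged 105 ± 2.75 CPM (DMSO), 81.8 ± 6.93 (GDC), 56.3 ± 0.757 (GSK) and 34.9 ± 0.815 (COMBO), where ± is the SD over the n = 3 libraries of an arm throughout.

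Changes are log2 fold changes from 1 edgeR quasi-likelihood fit over all 12 libraries, and adjusted p-values (Benjamini-Hochberg) cover all 14189 genes tested. A gene is said to have risen or fallen where the adjusted p was under 0.05. The arms compared with DMSO share the same 3 DMSO libraries. With GDC, 9 of the 10 genes rose and 0 fell, against 20.0% of all tested genes that rose and 20.0% that fell. Their median log2 change was 0.50, and that of all genes was 0.016. With GSK, 7 rose and 1 fell, against 40.0% and 35.7% of all genes, with a median of 0.45 beside 0.058. With COMBO, 8 rose and 2 fell, against 43.3% and 39.2%, with a median of 0.98 beside 0.054. Scaling by library totals instead of TMM moved the median of all genes up by 0.15 in GSK, by 0.21 in COMBO and by 0.17 in COMBO against GDC. Under that scaling, higher genes made up 64.0% in place of 52.8% of all calls in GSK, 63.3% in place of 52.5% in COMBO, and 62.8% in place of 49.9% in COMBO against GDC. For GDC against DMSO, higher genes were 50.0% of all calls, and 40.2% with DESeq2 size factors or 38.7% with the DESeq2 test.

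**Figure D1:**
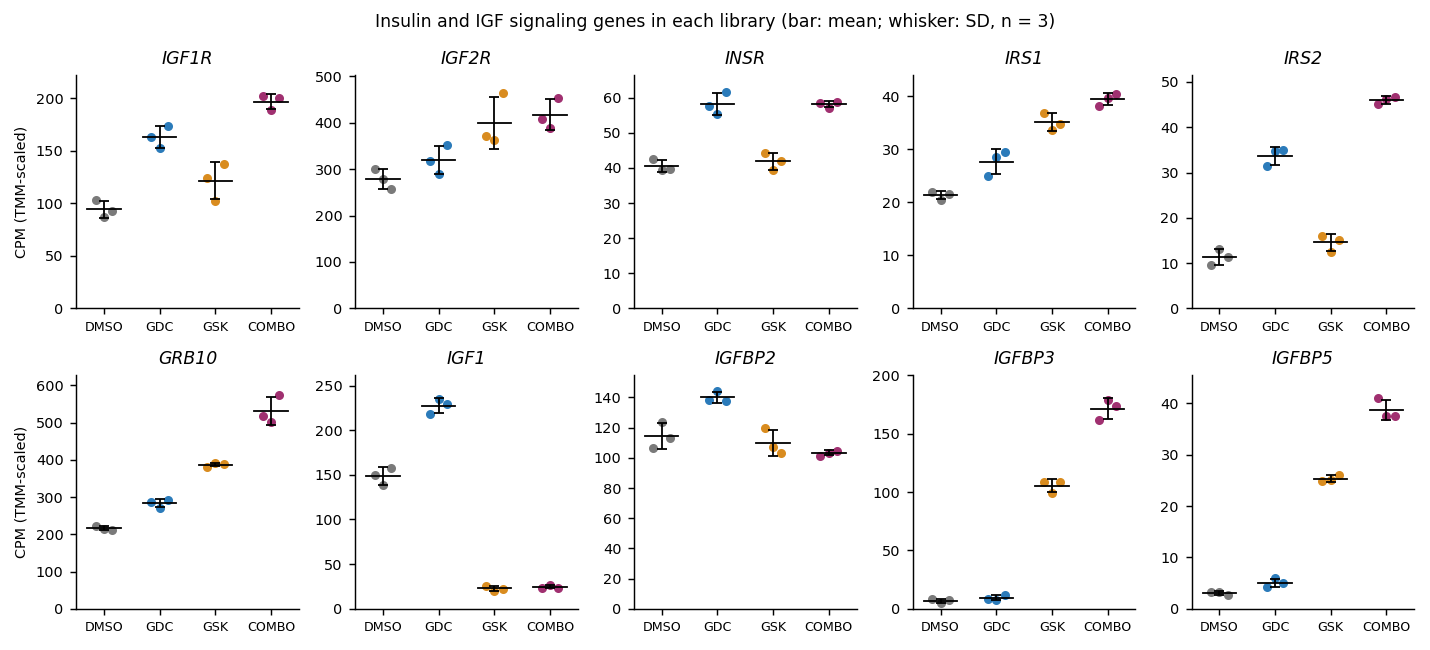
Level of each of the 10 genes in every library, in CPM on linear axes that start at 0, by arm (points, libraries; horizontal line, mean; whisker, SD, n = 3). IRS2 and IGF1R were highest in COMBO and next highest in GDC, IGFBP3 and IGFBP5 were high only in the 2 arms that received GSK126, and IGF1 was low in those arms.

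The ligand IGF1 rose with GDC and fell with GSK and COMBO. Its level was 149, 138 and 158 CPM in the DMSO libraries A, B and C, 218, 235 and 230 CPM under GDC, 25.7, 20.1 and 22.4 CPM under GSK and 23.8, 26.8 and 23.4 CPM under COMBO. Every GDC library lay above every DMSO library, and every library with GSK126 lay far below both. IGF1 rose with GDC by 0.61 on the log2 scale (SE 0.062, adjusted p = 3.23e-07). With GSK it fell by 2.72 (SE 0.078, adjusted p = 2.37e-16), a level 6.61-fold lower than in DMSO, which ranked 3 among the falls of 14189 genes. In COMBO it fell by 2.58 against DMSO (adjusted p = 2.21e-17), and against GDC it fell by 3.20, to a level 9.17-fold lower (adjusted p = 3.83e-18). The COMBO and GSK libraries overlapped, with a difference of 0.14 (95% interval -0.05 to 0.33, adjusted p = 0.209). Without GSK A that difference was 0.25 and passed the test (adjusted p = 0.0418).

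IGF1 lies on chromosome 12, 102395874 to 102481744, minus strand (hg38, GENCODE 44), where the antisense transcripts HELLPAR and LINC02456 overlap it. The use of strand in counting is not given in the sources used here, so reads of overlapping genes cannot be told apart. Fewer cells with a transcript and less of it per cell cannot be told apart in these bulk samples either. The upstream RefSeq promoter of IGF1 is shown because it is the only 1 of the 17 promoters of these genes with the FOXO core letters TGTTTAC, read on both strands, which 2.98% of the 35116 promoters in the table hold. The letters stand on the minus strand of this promoter, as GTAAACA in capitals at bases 4 to 10, with 240 bases between them and the start. The window has a GC content of 39.6% and 0 CpG. It is the 250 bases before the start at chr12:102481748-102481997, minus strand, GRCh38.p14:
IGF1 promoter: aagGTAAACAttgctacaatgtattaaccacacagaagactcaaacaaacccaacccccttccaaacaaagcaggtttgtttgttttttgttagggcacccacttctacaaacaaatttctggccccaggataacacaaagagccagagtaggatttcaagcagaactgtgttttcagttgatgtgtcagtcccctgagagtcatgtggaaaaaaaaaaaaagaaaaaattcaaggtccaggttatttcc
A match is a description of letters, not a binding site, and a promoter without one says only that these letters are not in its window.

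All 3 receptors rose in COMBO, where 43.3% of all tested genes rose. With a single agent, IGF1R rose with both, INSR passed the test with GDC and IGF2R with GSK. IGF1R, the tyrosine kinase that binds IGF1, had 103, 87.1 and 92.6 CPM in the DMSO libraries, 163, 153 and 174 CPM under GDC, 125, 102 and 137 CPM under GSK and 202, 188 and 200 CPM under COMBO. The GDC and COMBO libraries stood apart from DMSO and from each other, and GSK B lay among the DMSO libraries. IGF1R rose by 0.80 with GDC (SE 0.081, adjusted p = 3.13e-07) and by 0.37 with GSK (adjusted p = 4.62e-04). It rose by 1.07 with COMBO (SE 0.080, adjusted p = 1.36e-10), to 2.09-fold the DMSO level. COMBO exceeded GDC by 0.27 (adjusted p = 0.00419) and GSK by 0.70 (adjusted p = 6.42e-07). The gene spans chromosome 15, 98648539 to 98964530, plus strand, where 5 noncoding genes overlap it.

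INSR, the insulin receptor, had 42.4, 39.5 and 39.8 CPM in the DMSO libraries, 57.6, 55.3 and 61.7 CPM under GDC, 44.2, 39.5 and 41.9 CPM under GSK and 58.5, 57.2 and 58.9 CPM under COMBO. The libraries thus formed a low pair of arms without GDC-0941 and a high pair with it, and arms within a pair overlapped. INSR rose by 0.53 with GDC (SE 0.058, adjusted p = 7.59e-07) and by 0.53 with COMBO (adjusted p = 3.67e-08), and COMBO exceeded GSK by 0.48 (adjusted p = 1.82e-06). GSK differed from DMSO by 0.05 (95% interval -0.08 to 0.18, adjusted p = 0.482), and COMBO from GDC by -0.0018 (95% interval -0.12 to 0.12, adjusted p = 0.978). With library totals as scaling both passed the test, at 0.20 (adjusted p = 0.00558) and 0.17 (adjusted p = 0.00902), close to the shift of all genes under that scaling. INSR lies on chromosome 19, 7112255 to 7294414, minus strand, with no other annotated gene over it.

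IGF2R, the mannose 6-phosphate receptor that takes up IGF2 for degradation and has no kinase, had 299, 279 and 257 CPM in the DMSO libraries, 317, 290 and 351 CPM under GDC, 370, 363 and 465 CPM under GSK and 408, 388 and 453 CPM under COMBO. All libraries with GSK126 were above all libraries without it, and GDC overlapped DMSO. IGF2R rose by 0.52 with GSK (SE 0.085, adjusted p = 1.31e-05) and by 0.58 with COMBO (adjusted p = 2.27e-06), and COMBO exceeded GDC by 0.38 (adjusted p = 3.84e-04). The change with GDC was 0.20 (95% interval 0.03 to 0.38, adjusted p = 0.0632), which passed the test with library totals, without the filter and in a fit of the compared arms alone. COMBO differed from GSK by 0.06 (95% interval -0.12 to 0.23, adjusted p = 0.590). IGF2R spans chromosome 6, 159969082 to 160113507, plus strand, where the antisense transcript AIRN and the pseudogene CHP1P2 overlap it.

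All 3 adaptors rose in each arm against DMSO, where 20.0% (GDC), 40.0% (GSK) and 43.3% (COMBO) of all tested genes rose. IRS2 was higher in every GDC library than in any GSK library, whereas IRS1 and GRB10 were higher in every GSK library than in any GDC library. IRS2, which links both receptors to PI3K, had 9.68, 13.0 and 11.3 CPM in the DMSO libraries, 31.5, 34.7 and 35.0 CPM under GDC, 16.0, 12.5 and 15.2 CPM under GSK and 45.1, 46.2 and 46.8 CPM under COMBO. Both arms with GDC-0941 were well above DMSO, COMBO was the highest, and GSK overlapped DMSO. IRS2 rose by 1.55 with GDC (SE 0.089, adjusted p = 2.18e-10), to 2.93-fold the DMSO level, the rank of 75 among all rises in that arm. In COMBO it rose by 1.99 against DMSO (adjusted p = 1.67e-14), a 3.98-fold level. COMBO against GSK gave 1.67 (SE 0.091, adjusted p = 1.47e-11), a 3.18-fold difference that ranked 14 among the rises and 56 among changes in either direction over the 14189 genes. The rise with GSK was 0.32 (adjusted p = 0.00898), and it missed the test without DMSO A (0.22, adjusted p = 0.0620), without DMSO C (0.28, adjusted p = 0.0621) and without GSK A (0.22, adjusted p = 0.104). COMBO exceeded GDC by 0.44 (adjusted p = 3.44e-05).

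IRS2 lies on chromosome 13, 109752695 to 109786583, minus strand, where 1 antisense noncoding gene overlaps it. Its promoter is shown as the only 1 of the 17 with the insulin response element core TGTTTTG, searched on both strands and found in 4.30% of promoters in the table. The letters are in capitals at bases 211 to 217, with 33 bases between them and the start, in a window of 76.4% GC with 42 CpG. The sequence is chr13:109786584-109786833, minus strand, GRCh38.p14:
IRS2 promoter: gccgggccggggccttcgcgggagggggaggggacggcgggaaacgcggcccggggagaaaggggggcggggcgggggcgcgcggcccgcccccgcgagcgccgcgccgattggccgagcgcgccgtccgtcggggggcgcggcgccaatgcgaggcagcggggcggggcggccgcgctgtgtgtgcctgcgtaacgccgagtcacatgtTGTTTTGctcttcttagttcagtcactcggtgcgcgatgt
The promoters of INSR, IGF1R, IRS1, GRB10, IGFBP2, IGFBP3 and IGFBP5, which also rose with GDC, held neither set of letters in this window.

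IRS1, the other main docking protein of these receptors, had 22.0, 20.5 and 21.6 CPM in the DMSO libraries, 25.0, 28.5 and 29.4 CPM under GDC, 36.9, 33.6 and 34.8 CPM under GSK and 38.1, 39.7 and 40.4 CPM under COMBO. The arms did not overlap and stood in the order DMSO, GDC, GSK and COMBO. IRS1 rose by 0.38 with GDC (adjusted p = 2.56e-04), by 0.71 with GSK (adjusted p = 1.67e-08) and by 0.88 with COMBO (adjusted p = 1.44e-10). COMBO exceeded GDC by 0.50 (adjusted p = 1.02e-06). The difference from GSK, 0.17 (adjusted p = 0.0435), was near the threshold and missed it without GSK B (0.17, adjusted p = 0.101), without GSK C (0.16, adjusted p = 0.110), without COMBO B (0.16, adjusted p = 0.0863) or without COMBO C (0.16, adjusted p = 0.0993), and with DESeq2 (adjusted p = 0.101). IRS1 lies on chromosome 2, 226731312 to 226799820, minus strand, free of other annotated genes.

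The ratio of IRS2 to IRS1, on the scale of CPM per kb of exon, was 0.655 ± 0.121 under DMSO, 1.50 ± 0.0425 under GDC, 0.508 ± 0.0449 under GSK and 1.43 ± 0.0158 under COMBO. On this scale the IRS2 transcript was therefore less abundant than that of IRS1 in the arms without GDC-0941 and more abundant in the arms with it, in every library. INSR to IGF1R was 0.555 ± 0.0279, 0.459 ± 0.00611, 0.449 ± 0.0527 and 0.381 ± 0.00888 in the same order of arms, so IGF1R exceeded INSR throughout.

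GRB10, an adaptor that binds activated insulin and IGF1 receptors and dampens their signal, had 222, 215 and 212 CPM in the DMSO libraries, 286, 271 and 292 CPM under GDC, 381, 391 and 388 CPM under GSK and 518, 503 and 574 CPM under COMBO. The arms were apart in every pair. It rose by 0.39 with GDC (adjusted p = 4.17e-06), by 0.84 with GSK (SE 0.049, adjusted p = 4.90e-12) and by 1.30 with COMBO (adjusted p = 1.97e-15), which is 2.46-fold the DMSO level. COMBO exceeded GDC by 0.91 (adjusted p = 9.43e-13) and GSK by 0.46 (adjusted p = 1.88e-07). GRB10 lies on chromosome 7, 50590063 to 50793462, minus strand, with 1 antisense noncoding gene over it.

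**Figure D2:**
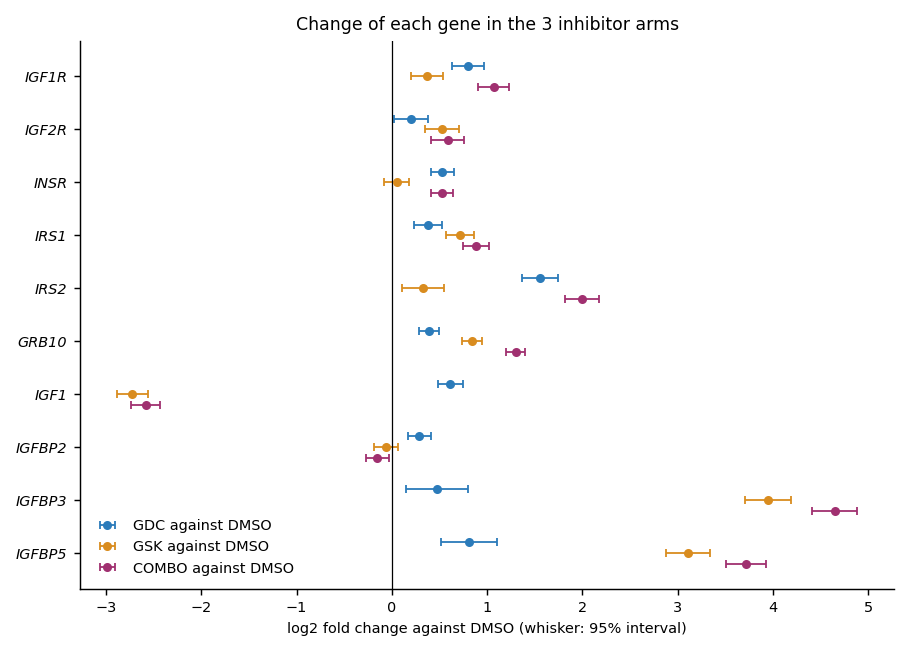
Log2 fold change of each gene in GDC, GSK and COMBO against the same DMSO libraries (points, edgeR estimates; whiskers, 95% intervals; the vertical line marks no change). IGF1 lies near -2.7 with GSK and -2.6 with COMBO but at 0.61 with GDC, and IGFBP3 and IGFBP5 lie beyond 3 with GSK and COMBO.

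The binding proteins split by member. IGFBP3 and IGFBP5 rose many-fold in the arms with GSK126, whereas IGFBP2 stayed between 101 and 144 CPM in all 12 libraries. IGFBP3, the main carrier of IGFs in the circulation and an inhibitor of growth in many epithelial cells, had 8.10, 4.98 and 7.43 CPM in the DMSO libraries, 8.66, 7.70 and 12.1 CPM under GDC, 109, 99.1 and 109 CPM under GSK and 162, 179 and 174 CPM under COMBO. GSK and COMBO stood apart from each other and far above the rest, and GDC overlapped DMSO. IGFBP3 rose by 3.95 with GSK (SE 0.12, adjusted p = 2.96e-16), 15.4-fold, and by 4.65 with COMBO (SE 0.11, adjusted p = 3.13e-18), 25.1-fold. COMBO exceeded GDC by 4.18 (adjusted p = 4.27e-17) and GSK by 0.70 (SE 0.085, adjusted p = 1.18e-06). The change with GDC alone was 0.48 (adjusted p = 0.0202), and it rested on single libraries: it was 0.28 without DMSO B (adjusted p = 0.134) and 0.21 without GDC C (adjusted p = 0.316), and DESeq2 gave an adjusted p of 0.0554.

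IGFBP5, which binds IGFs and the extracellular matrix, had 3.26, 3.26 and 2.67 CPM in the DMSO libraries, 4.33, 5.91 and 5.03 CPM under GDC, 24.8, 25.1 and 26.0 CPM under GSK and 41.0, 37.5 and 37.6 CPM under COMBO. The 4 arms did not overlap and kept the order seen for IGFBP3. IGFBP5 rose by 0.81 with GDC (SE 0.14, adjusted p = 1.28e-04), by 3.11 with GSK (SE 0.11, adjusted p = 3.92e-15) and by 3.72 with COMBO (SE 0.10, adjusted p = 1.51e-17). These were levels 8.61-fold and 13.2-fold those of DMSO with GSK and COMBO. COMBO exceeded GDC by 2.90 (adjusted p = 9.86e-16) and GSK by 0.61 (adjusted p = 3.04e-06).

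IGFBP2, a binding protein often abundant in prostate cancer cells, had 106, 124 and 113 CPM in the DMSO libraries, 138, 144 and 138 CPM under GDC, 120, 107 and 103 CPM under GSK and 101, 103 and 105 CPM under COMBO. Only GDC stood clearly above DMSO, GSK overlapped it, and COMBO lay just below. IGFBP2 rose by 0.29 with GDC (SE 0.058, adjusted p = 5.90e-04), and COMBO was lower than GDC by a log2 change of -0.44 (adjusted p = 1.04e-06). The fall in COMBO against DMSO was small, -0.15 (adjusted p = 0.0203), and it was -0.098 without DMSO B (adjusted p = 0.142) and turned to 0.054 with library totals (adjusted p = 0.390). GSK differed from DMSO by -0.06 (95% interval -0.19 to 0.06, adjusted p = 0.336), but by -0.15 without DMSO A (adjusted p = 0.0291) and by -0.17 without GSK A (adjusted p = 0.0234). COMBO differed from GSK by -0.09 (95% interval -0.22 to 0.04, adjusted p = 0.236).

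In the genome IGFBP2 (chromosome 2, 216632828 to 216664436, plus strand) and IGFBP5 (216672105 to 216695549, minus strand) are neighbors, 7.67 kb apart and convergent, and IGFBP5 rose with GSK whereas IGFBP2 did not pass the test. IGFBP3 (chromosome 7, 45912245 to 45921874, minus strand) lies 18.6 kb from IGFBP1, which had 0 to 5 counts per library over all 12 libraries, the highest in COMBO. The noncoding gene DIRC3-AS1 overlaps IGFBP5, and none overlaps IGFBP2 or IGFBP3. The promoters of the pair that rose with GSK126 are shown with each CpG in capitals, since Polycomb marks in mammals favor CpG-rich promoters. The IGFBP3 window has 32 CpG and 76% GC, and the IGFBP5 window has 8 CpG and 61.2% GC, where the median promoter of the table has 11 CpG and 58% GC. The IGFBP3 window lies within the GENCODE span of the gene. They are chr7:45921273-45921522 and chr2:216695550-216695799, both on the minus strand of GRCh38.p14:
IGFBP3 promoter: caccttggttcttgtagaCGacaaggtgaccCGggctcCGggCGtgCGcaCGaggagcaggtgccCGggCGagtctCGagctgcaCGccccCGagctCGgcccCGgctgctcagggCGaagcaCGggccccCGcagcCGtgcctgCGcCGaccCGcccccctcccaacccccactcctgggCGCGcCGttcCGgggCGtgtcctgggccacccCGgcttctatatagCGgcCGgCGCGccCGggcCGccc
IGFBP5 promoter: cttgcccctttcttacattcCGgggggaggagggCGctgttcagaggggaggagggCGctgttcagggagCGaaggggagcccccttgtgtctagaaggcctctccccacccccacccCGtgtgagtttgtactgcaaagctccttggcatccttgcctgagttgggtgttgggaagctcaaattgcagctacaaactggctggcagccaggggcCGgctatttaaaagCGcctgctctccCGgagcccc
Windows of the other genes had 48 CpG for IGF1R, 42 for IRS2, 39 for IRS1, 33 for IGF2R and 28 for INSR. Over their several starts they had 2 to 40 CpG for GRB10, 4 to 22 for IGFBP2 and 0 to 1 for IGF1. The part of CpG number in the changes with GSK126 was not tested. No measure of the histone mark at these promoters was analyzed here.

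**Figure D3:**
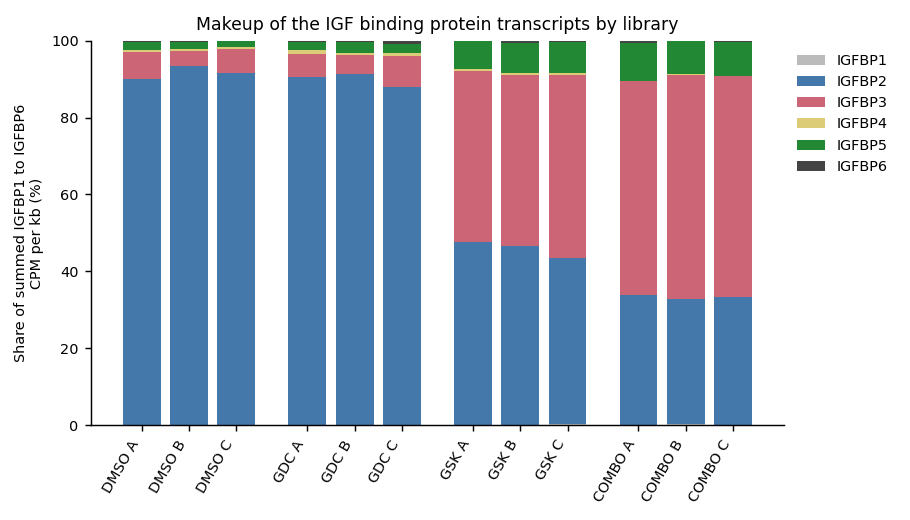
Share of each of IGFBP1 to IGFBP6 in their summed CPM per kb of exon, in percent, for each of the 12 libraries (stacked bars from 0 to 100%). IGFBP2 averages 91.7% in DMSO and 33.1% in COMBO, and IGFBP3 averages 5.75% and 57.1%.

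The makeup of the binding protein transcripts was followed library by library, as a description with no test. On the scale of CPM per kb, IGFBP2 made up 91.7% ± 1.67 of the sum over IGFBP1 to IGFBP6 under DMSO, 89.9% ± 1.76 under GDC, 45.8% ± 2.18 under GSK and 33.1% ± 0.568 under COMBO. IGFBP3 made up 5.75% ± 1.67, 6.32% ± 1.52, 45.6% ± 1.61 and 57.1% ± 1.37, and IGFBP5 1.80% ± 0.220, 2.39% ± 0.335, 7.75% ± 0.453 and 9.13% ± 0.734. The libraries with GSK126 did not overlap those without it for any of these 3 shares. The summed level was 26.3 ± 1.56 CPM per kb under DMSO, 32.8 ± 0.576 under GDC, 50.7 ± 2.29 under GSK and 65.7 ± 1.80 under COMBO. IGFBP3, IGFBP5 and IGF1 are also transcribed by fibroblasts, so 6 markers of fibroblasts and smooth muscle were read beside them. Their summed level was 15.6 to 17.5 CPM under DMSO, 17.3 to 20.3 under GDC, 34.3 to 45.2 under GSK and 32.6 to 52.1 under COMBO, most of it COL1A1, at 10.5, 11.9, 30.3 and 35.8 CPM on average. The other detected markers did not follow COL1A1. ACTA2 averaged 4.57, 2.81, 6.83 and 3.35 CPM in the same order of arms, lower in COMBO than in DMSO. PDGFRB averaged 1.68, 3.81, 2.14 and 2.25 CPM, highest in GDC. COL1A2, DCN and LUM were at 0 in all DMSO and GDC libraries and at most 7 counts per library elsewhere. The part of these markers in the IGFBP results was not tested.

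To ask what each agent added to the other, COMBO was set against the single arms. Against GDC, 7 of the 10 genes were higher and 2 lower, beside 37.9% and 38.0% of all tested genes, with a median of 0.41 and 0.018 over all genes. The 2 lower genes were IGF1 and IGFBP2, and INSR did not pass. Against GSK, 7 were higher and 0 lower, beside 19.0% and 26.9%, with a median of 0.47 and -0.014 over all genes. IGF1, IGFBP2 and IGF2R did not pass there. Higher genes were 41.4% of all calls in that comparison, and 52.3% with library totals. COMBO was the highest arm by mean for IGF1R, IGF2R, IRS1, IRS2, GRB10, IGFBP3 and IGFBP5. For IGF2R the COMBO and GSK libraries overlapped, and for the other 6 the COMBO libraries were above all others. How often COMBO was the highest arm among all tested genes was not computed.

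The interaction is the log2 change by GDC-0941 in cells with GSK126 (COMBO against GSK) minus the change without it (GDC against DMSO). It was below 0 and past the threshold for 2 of the 10 genes and above 0 for 0, beside 16.5% of all genes below and 4.86% above. The median was -0.12, with -0.063 over all genes. With DESeq2 size factors, higher genes were 35.2% of all interaction calls in place of 22.7%. For IGF1 the interaction was -0.47 (SE 0.11, 95% interval -0.70 to -0.25, adjusted p = 0.00377), from a change of 0.61 without GSK126 and of 0.14 with it. It was -0.32 without GSK A (adjusted p = 0.0641). For IGFBP2 it was -0.38 (SE 0.084, 95% interval -0.55 to -0.20, adjusted p = 0.00279), from 0.29 to -0.09, and -0.25 without GSK A (adjusted p = 0.0499).

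The other 8 genes gave interactions from -0.21 for IRS1 to 0.23 for IGFBP3, none past the threshold. For IRS2, whose change by GDC-0941 was 1.55 without and 1.67 with GSK126, the interaction was 0.12 (95% interval -0.16 to 0.39, adjusted p = 0.576). For GRB10 it was 0.07 (95% interval -0.07 to 0.21, adjusted p = 0.523), for INSR -0.05 (95% interval -0.22 to 0.12, adjusted p = 0.723) and for IGF1R -0.10 (95% interval -0.34 to 0.14, adjusted p = 0.579). For IGFBP5 it was -0.20 (95% interval -0.54 to 0.13, adjusted p = 0.407). The IGFBP3 interaction had a wide interval, -0.14 to 0.60 (adjusted p = 0.398), and was 0.52 without GDC C (adjusted p = 0.0437).

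**Figure D4:**
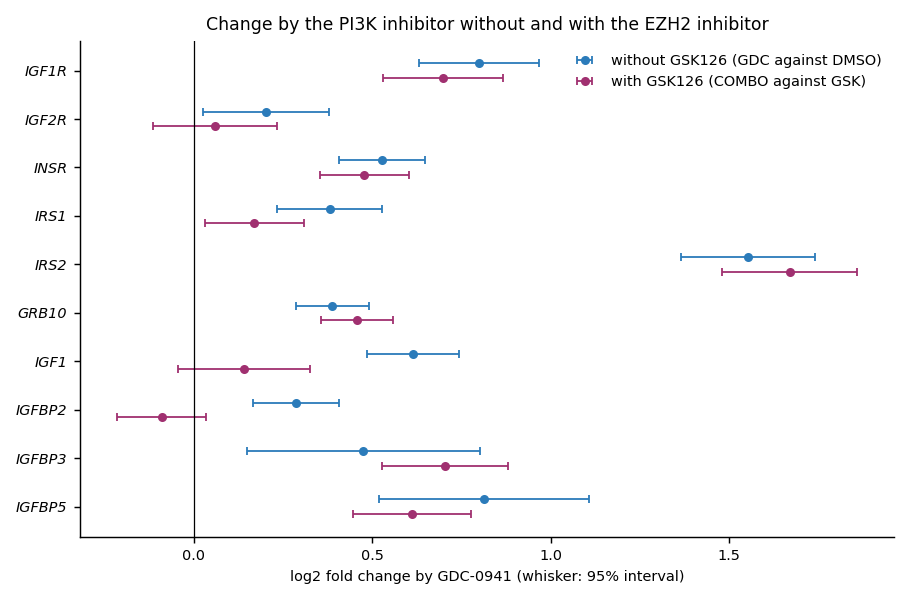
Log2 fold change by GDC-0941 without GSK126 (GDC against DMSO) and with it (COMBO against GSK) for each gene (points, edgeR estimates; whiskers, 95% intervals). The intervals are apart for IGF1 and IGFBP2 and overlap for the other 8 genes, with IRS2 the farthest right in both.

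Levels of different genes were compared per kb of exon. In DMSO the order was IGFBP2 (24.1 ± 1.87 CPM per kb), GRB10 (22.1 ± 0.502), IGF1 (18.3 ± 1.23), IGF2R (12.3 ± 0.935), IGF1R (6.77 ± 0.592), INSR (3.75 ± 0.147), IRS1 (2.13 ± 0.0767), IGFBP3 (1.50 ± 0.360), IRS2 (1.39 ± 0.206) and IGFBP5 (0.474 ± 0.0528). IGFBP2 and GRB10 overlapped there, as did IGFBP3 and IRS2, and the other neighbors were apart in all libraries. In COMBO the order began with GRB10 (54.3 ± 3.86 CPM per kb) and IGFBP3 (37.6 ± 1.91) and ended with IRS1 (3.94 ± 0.116) and IGF1 (3.04 ± 0.227), and all neighbors were apart. IGF1 thus went from rank 3 of 10 in DMSO to rank 10 in COMBO, and IGFBP3 from rank 8 to rank 2. In GDC, IGFBP2, GRB10 and IGF1 overlapped at 29.5, 28.9 and 28.0 CPM per kb. In GSK, IGFBP2 and IGFBP3 overlapped at 23.2 and 23.1, and IGFBP5, INSR and IRS1 lay close together at 3.92, 3.86 and 3.50.

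A further list of 57 ligands, adaptors, PI3K and AKT components and FOXO factors was read in the same fit. Of these, 56 were in the files and 46 passed the filter. With GDC 13 rose and 13 fell, beside 20.0% and 20.0% of all tested genes. With GSK 20 rose and 15 fell, beside 40.0% and 35.7%, and with COMBO 25 rose and 18 fell, beside 43.3% and 39.2%. The median in COMBO was 0.31, beside 0.054 over all genes. Against GDC, COMBO was higher for 22 and lower for 18, beside 37.9% and 38.0%, and against GSK higher for 17 and lower for 14, beside 19.0% and 26.9%. The interaction passed above 0 for 4 and below 0 for 8, beside 4.86% and 16.5%. The other ligands were at or near the floor, with 0 counts in all libraries for INS and 3 for IGF2, and of these ligands only IGF1 passed the filter.

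In the ligand and protease group 2 of 11 genes were tested, and both fell in COMBO, where 39.2% of all genes fell. IDE, the enzyme that degrades insulin, averaged 130 ± 10.3, 107 ± 4.19, 96.1 ± 2.42 and 66.4 ± 4.38 CPM under DMSO, GDC, GSK and COMBO, a fall of 0.95 in COMBO (adjusted p = 8.37e-12). STC2, an inhibitor of the protease that cleaves IGF-binding proteins, averaged 87.7 ± 3.44, 61.8 ± 2.93, 39.3 ± 2.60 and 52.1 ± 1.85 CPM, a log2 change of -0.75 in COMBO against DMSO (adjusted p = 1.20e-10), and COMBO exceeded GSK by 0.41 (adjusted p = 2.09e-05). Of the adaptors and attenuators 17 of 18 were tested, and 9 rose and 6 fell in COMBO, beside 43.3% and 39.2% of all genes. SHC2, an SH2 adaptor, averaged 0.536 ± 0.10, 2.37 ± 0.271, 10.4 ± 1.51 and 20.9 ± 2.97 CPM, a rise of 5.19 in COMBO (adjusted p = 5.66e-16). The DMSO libraries held only 4, 11 and 24 counts of SHC2, which limits the precision of its change. GAB2, a docking protein that binds PI3K, averaged 3.77 ± 0.729, 4.90 ± 0.368, 10.0 ± 0.727 and 18.7 ± 3.31 CPM, with a rise of 2.21 (adjusted p = 8.06e-12).

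All 24 genes of the PI3K and AKT group were tested, and 13 rose and 10 fell in COMBO, beside the same 43.3% and 39.2% of all genes. PIK3IP1, an inhibitor of PI3K, averaged 3.17 ± 0.489 CPM (DMSO), 11 ± 1.43 (GDC), 21.8 ± 2.83 (GSK) and 50.0 ± 1.13 (COMBO). It rose in each arm, by 1.69, 2.71 and 3.89 (adjusted p = 2.31e-17 in COMBO). EIF4EBP1, the repressor of translation that mTORC1 phosphorylates, averaged 99.9 ± 6.46, 88.1 ± 2.14, 38.5 ± 2.46 and 26.7 ± 1.79 CPM and fell by 1.92 in COMBO (adjusted p = 2.48e-16).

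The 3 FOXO genes in the files rose in every arm against DMSO, where 20.0% (GDC), 40.0% (GSK) and 43.3% (COMBO) of all genes rose. FOXO3 averaged 139 ± 7.28 CPM (DMSO), 201 ± 12.9 (GDC), 361 ± 14.4 (GSK) and 582 ± 38.8 (COMBO), with changes of 0.54, 1.38 and 2.07 (adjusted p = 2.11e-17 in COMBO). FOXO4 averaged 10.8 ± 1.82, 19.3 ± 1.30, 20.0 ± 0.925 and 35.4 ± 5.61 CPM, with changes of 0.82, 0.88 and 1.70 (adjusted p = 1.69e-11 in COMBO). FOXO1, named after its values were seen, averaged 8.30 ± 0.643, 10.0 ± 0.391, 17.3 ± 1.88 and 24.7 ± 1.52 CPM, with changes of 0.28, 1.08 and 1.59 (adjusted p = 1.84e-12 in COMBO). GSK libraries were above GDC libraries for FOXO3 and FOXO1 and overlapped them for FOXO4. Of the 10 genes, IRS2, INSR, IGF1R, IGF1 and IGFBP2 were higher in all GDC libraries than in any GSK library. The order was the opposite for IRS1, GRB10, IGF2R, IGFBP3 and IGFBP5. How often the GDC and GSK libraries stood apart among all tested genes was not computed, so this split cannot be called particular to these genes. Transcript levels do not measure FOXO activity, and the part of FOXO factors in these changes was not tested.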

How the data were processed

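C4.2B cells gave 12 polyA RNA-seq libraries, 3 per arm. Per the labels and the submitters' processing notes, alignment was to hg38 with STAR, counting per gene used HTSeq, and DESeq2 served for normalization. Versions of these tools, the gene annotation and whether counting used strand are not given in the sources used here. The deposited files give an unnormalized read count for each gene symbol. A table of normalized values that the authors also deposited was not used, and 0 columns of per-sample values went unmapped. Summary lines (23.7% to 33.7% of reads) stayed out of library sizes and tests.

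Counts were scaled by TMM, filtered by filterByExpr (14189 genes) and fitted in edgeR 4.0.16 (R 4.3.3, glmQLFit and glmQLFTest), with all 12 libraries in 1 fit, 1 coefficient per arm and no covariate. Tests were two-sided, with a Benjamini-Hochberg adjusted p under 0.05 over all genes tested. The common biological coefficient of variation was 0.0499. Intervals are at 95%. The code was tested on simulated data.

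Libraries within each arm varied beyond sampling noise (chi-square per degree of freedom 1.76 to 6.18). The study seeded its plates in triplicate, so p-values measure the spread between plates of 1 line, which may be technical. Counting floors cover counting error only. Same-letter libraries deviated together with correlations of -0.084 to 0.19 over 18 pairs, of which 2 were over 0.1, and the letters were not taken as pairs. Both of these were between GDC and COMBO (0.12 for A and 0.19 for B), where C gave 0.073. Unlike letters of these arms gave -0.15 to 0.045. Letters may thus be shared between GDC and COMBO, and a replicate block is among the other settings.

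The 10 genes and all lists were chosen with earlier results of these data known. All 10 genes are named. From each group of the pathway list the 2 genes with the largest change in COMBO against DMSO are named, among those past the threshold whose mean log2 CPM was 1 or more, and IGFBP1 and EZH2 besides. A further gene of that rule is not reported here. Gene positions and exon lengths are from GENCODE 44 on hg38. Promoters are the 250 bases before each start in a RefSeq table (GRCh38.p14), which held all 10 genes with 17 starts. CPM per kb divides CPM by the union exon length, which may differ from the annotation used in counting.

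Other settings tried were the DESeq2 1.42.0 test, its size factors within edgeR, scaling by library totals, leaving out the filter, a filter on a mean of 1 CPM, a fit to the arms being compared, a replicate block, and leaving out each library in turn.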

Additional observations from a re-analysis of the deposited data

Results flagged for a closer look

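For 2 of the 10 genes the change by GDC-0941 differed with and without GSK126 by a test of the difference itself (the interaction of the edgeR fit), both downward, beside 16.5% of all tested genes that passed downward and 4.86% upward. For IGF1 the difference was -0.47 on the log2 scale (SE 0.11, adjusted p = 0.00377). The GDC libraries, at 218 to 235 CPM, were all above the DMSO libraries, at 138 to 158, whereas the COMBO libraries, at 23.4 to 26.8, overlapped the GSK libraries, at 20.1 to 25.7. Without GSK A it was -0.32 (adjusted p = 0.0641). For IGFBP2 the difference was -0.38 (SE 0.084, adjusted p = 0.00279). Its GDC libraries, at 138 to 144 CPM, were above DMSO, at 106 to 124, and its COMBO libraries, at 101 to 105, overlapped GSK, at 103 to 120. Without GSK A it was -0.25 (adjusted p = 0.0499). Reads outside genes, which were 13.7% to 14.6% of reads in DMSO, 15.2% to 15.7% in GDC, 18.5% to 18.9% in GSK and 21.0% to 23.0% in COMBO, moved with the arms, and their part in these differences was not tested.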

How the results depend on the processing

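Across the alternatives, 777 of 830 recomputed changes of the 10 genes kept both direction and side of the threshold, 15 lost the call, 10 gained it and 28 changed sign. The changes of sign were in 8 differences, of which IGFBP2 in COMBO against DMSO was past the threshold. For INSR they were, in GSK against DMSO, -0.037 with no filter and -0.030 to 0.048 without single libraries. In COMBO against GDC, INSR was 0.0095 with DESeq2 size factors, 0.17 with library totals, 0.011 with no filter, 0.063 under a 1 CPM filter, 0.0033 with the compared arms only and 0.00047 with DESeq2, and -0.035 to 0.077 without single libraries. Its interaction was 0.048 with no filter, 0.013 under a 1 CPM filter, and -0.046 to 0.056 without single libraries. With library totals, IGFBP2 was 0.090 in GSK and 0.054 in COMBO against DMSO, and in COMBO against GDC IGFBP2 was -0.27 and IGF1R 0.44. Without single libraries, IGF2R in COMBO against GSK ranged from -0.0018 to 0.18, and the interactions ranged from -0.15 to 0.012 for IGF1R and from -0.22 to 0.0091 for IGFBP5.

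Without single libraries, 1 to 3 of the 10 genes and 6 to 13 genes of the pathway list passed for the interaction. The lowest pathway counts were 6 without GDC A and 7 without GSK B, in place of 12. With the replicate block, 10 of the genes passed with GDC, 8 with GSK, 10 with COMBO, 9 in COMBO against GDC, 6 in COMBO against GSK and 2 for the interaction. The block gained IGF2R with GDC (adjusted p = 0.0337) and lost IRS1 in COMBO against GSK (adjusted p = 0.0552), and it changed no other call of the 10 genes. IGFBP2 in COMBO lost its call under a 1 CPM filter (-0.12, adjusted p = 0.0628). With 3 plates per arm of 1 line at 1 dose and 1 time, protein, phosphorylation and other lines were not measured here. The low levels of IGFBP3 and IGFBP5 in DMSO, 4.98 to 8.10 and 2.67 to 3.26 CPM, limit the precision of their fold changes.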

Other observations

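Among the PI3K subunits of the pathway list, named here after their values were seen, the catalytic and the regulatory genes each held rises and falls in COMBO. PIK3CA, a catalytic subunit, had 14.4, 18.0 and 15.4 CPM in the DMSO libraries, 22.0, 20.3 and 24.5 CPM under GDC, 27.8, 29.1 and 28.5 CPM under GSK and 37.0, 39.0 and 36.4 CPM under COMBO, a rise of 1.22 in COMBO (edgeR, adjusted p = 1.19e-11). PIK3CB, the other widely expressed catalytic subunit, averaged 180 ± 9.58 CPM (DMSO), 175 ± 5.88 (GDC), 106 ± 4.64 (GSK) and 95.9 ± 2.26 (COMBO), a log2 change of -0.90 in COMBO (adjusted p = 1.18e-12). PIK3CD, a further catalytic subunit, changed by 0.16 in COMBO (adjusted p = 0.00769), and the regulatory subunit PIK3R2 by -0.35 (adjusted p = 3.69e-06). In the regulatory subunit PIK3R1 the change was 1.40 in COMBO (adjusted p = 4.18e-16), 1.52 with GSK (adjusted p = 6.68e-16) and -0.05 with GDC (adjusted p = 0.474). PIK3R3, another regulatory subunit, had 145, 147 and 141 CPM in the DMSO libraries, 130, 126 and 136 CPM under GDC, 320, 334 and 332 CPM under GSK and 178, 190 and 189 CPM under COMBO. It rose with GSK by 1.19 (adjusted p = 1.01e-14), and COMBO was lower than GSK by a log2 change of -0.82 (adjusted p = 1.32e-11), with an interaction of -0.68 (adjusted p = 2.52e-07). TRIB3, a pseudokinase that binds AKT, averaged 61.0 ± 3.02 CPM (DMSO), 38.8 ± 0.988 (GDC), 24.7 ± 1.86 (GSK) and 27.2 ± 1.32 (COMBO), with an interaction of 0.80 (adjusted p = 4.98e-06).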
